A study of Mus musculus with 8 samples.

Results

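The genes described here are 10 genes of autophagy and mitophagy, *Ulk1*, *Becn1*, *Map1lc3a*, *Map1lc3b*, *Gabarapl1*, *Sqstm1*, *Bnip3*, *Lamp2*, *Ctsl* and *Tfeb*. They were chosen by name, with earlier results of these data known. All 10 were found among the 16686 genes with an ID in the table, and all 10 passed the filter on low counts, which left 12542 genes to be tested. Their expression was measured by RNA sequencing of poly(A) RNA from the tibialis anterior (TA), a fast-twitch muscle of the lower leg, of old male mice on the FVBN background, with 1 library per mouse. The 4 wild-type (WT) mice were compared with 4 mice lacking *Mybpc2* (C2-/-), the gene of fast skeletal myosin-binding protein-C, in which a stretch of exons is replaced by a neomycin resistance cassette flanked by LoxP sites. The labels give an age of 22 months for all 8 mice, and the groups differed in no other agent or allele that the labels name. In the deposited counts, *Mybpc2* was at 4963, 5448, 5099 and 7389 CPM (counts scaled to library size) in WT replicates 1, 2, 3 and 4, and at 4.35, 4.01, 38.3 and 3.85 CPM in C2-/- replicates 1, 2, 3 and 4.

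Autophagy encloses cytoplasm in a double membrane, the autophagosome, and delivers it to the lysosome, where it is digested. The ULK1 kinase complex starts the process, the class III PI3-kinase complex with Beclin 1 marks the membrane, proteins of the ATG8 family (LC3 and GABARAP) are attached to it, and cargo receptors such as p62 bring in what is to be degraded. Mitophagy is the form that removes mitochondria, and skeletal muscle raises the transcripts of many of these genes when it is fasted, denervated or exposed to glucocorticoid.

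Promoter windows are shown for the members that differed most between single libraries, and as the reference for the motifs given with them. RefSeq windows (GRCm38.p6) were found for 8 of the 10 members, 10 windows in all since *Tfeb* has 3, and none were matched for *Map1lc3a* and *Becn1*. Each is printed 5′ to 3′ on the strand of the gene and covers the 250 bases before a start site, and capitals mark the letters CACGTG, the E-box within the element bound by the TFEB family. The windows lie at chr6:129532942-129533191 on the plus strand for *Gabarapl1*, chr13:64370521-64370770 on the minus strand for *Ctsl*, chr7:138909507-138909756 on the minus strand for *Bnip3* and chr11:50210821-50211070 on the minus strand for *Sqstm1*.
Gabarapl1: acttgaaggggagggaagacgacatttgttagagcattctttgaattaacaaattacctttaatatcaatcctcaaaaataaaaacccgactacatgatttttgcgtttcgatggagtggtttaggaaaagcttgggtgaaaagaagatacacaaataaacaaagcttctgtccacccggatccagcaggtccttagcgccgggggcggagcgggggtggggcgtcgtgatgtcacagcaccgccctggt
Ctsl: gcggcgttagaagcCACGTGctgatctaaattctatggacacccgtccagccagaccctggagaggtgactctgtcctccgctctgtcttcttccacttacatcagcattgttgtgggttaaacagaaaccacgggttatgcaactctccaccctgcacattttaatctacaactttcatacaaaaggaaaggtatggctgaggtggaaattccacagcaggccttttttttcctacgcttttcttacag
Bnip3: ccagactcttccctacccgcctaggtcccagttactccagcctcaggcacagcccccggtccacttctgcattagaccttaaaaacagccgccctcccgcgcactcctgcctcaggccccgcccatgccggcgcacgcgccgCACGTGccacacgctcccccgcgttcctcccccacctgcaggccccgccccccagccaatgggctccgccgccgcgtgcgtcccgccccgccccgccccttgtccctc
Sqstm1: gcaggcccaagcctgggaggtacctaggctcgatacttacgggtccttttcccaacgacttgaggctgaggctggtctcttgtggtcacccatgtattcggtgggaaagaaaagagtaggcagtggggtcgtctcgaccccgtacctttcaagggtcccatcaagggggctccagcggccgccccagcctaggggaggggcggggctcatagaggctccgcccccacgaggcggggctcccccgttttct
The letters CACGTG, which read the same on both strands, were found in 2 of the 10 windows, starting 108 bases before the start site in *Bnip3* and 236 bases before it in *Ctsl*, and in 7.15% of all 32851 promoter windows. The window used for *Ctsl* lies inside the interval that RefSeq gives for the gene, which ends at base 64370772. The shorter hypoxia response core ACGTG, which overlaps CACGTG, was found in the same 2 windows and in 19.6% of all windows. The longer form GTCACGTG and the FoxO motif GTAAACA were found in 0 of the 10 windows, against 2.25% and 3.65% of all windows, with both strands searched. A match is a description of letters, and the lack of one says nothing about the factor.

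One library stood apart. WT replicate 2 had a score of 65 on the first principal component, which held 33.8% of the variance of the tested genes, while the other 7 libraries lay between -20.2 and 0.1. Its total of 28818479 counts lay within the range of the 8 libraries, 25425993 to 29747692, at which 3 counts correspond to between 0.101 and 0.118 CPM. Among all tested genes, 27.5% were highest in WT replicate 2, against 6.57% to 12.6% for each other library, and 4.60% were more than 1.5-fold above every other library there, against 0.120% to 0.718%. On the other side, 5.17% were more than 1.5-fold below every other library there, against 0.311% to 1.54%. Results are therefore given with and without this library. Fast fibre markers summed to between 160840 and 210297 CPM and slow fibre markers to between 44.1 and 84.5 CPM in the 8 libraries, which matches the label of a fast muscle.

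Of the 10 members, 8 were highest in WT replicate 2 and 7 were more than 1.5-fold above every other library there. No other library held a member more than 1.5-fold above or below all the rest. The summed level of the members was 3614 CPM in WT replicate 2, and lay between 1372 and 1774 CPM in the other WT libraries and between 1566 and 1663 CPM in C2-/-. In bulk muscle RNA, a change in the number of cells of a type and a change in RNA per cell cannot be told apart.

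**Figure D1:**
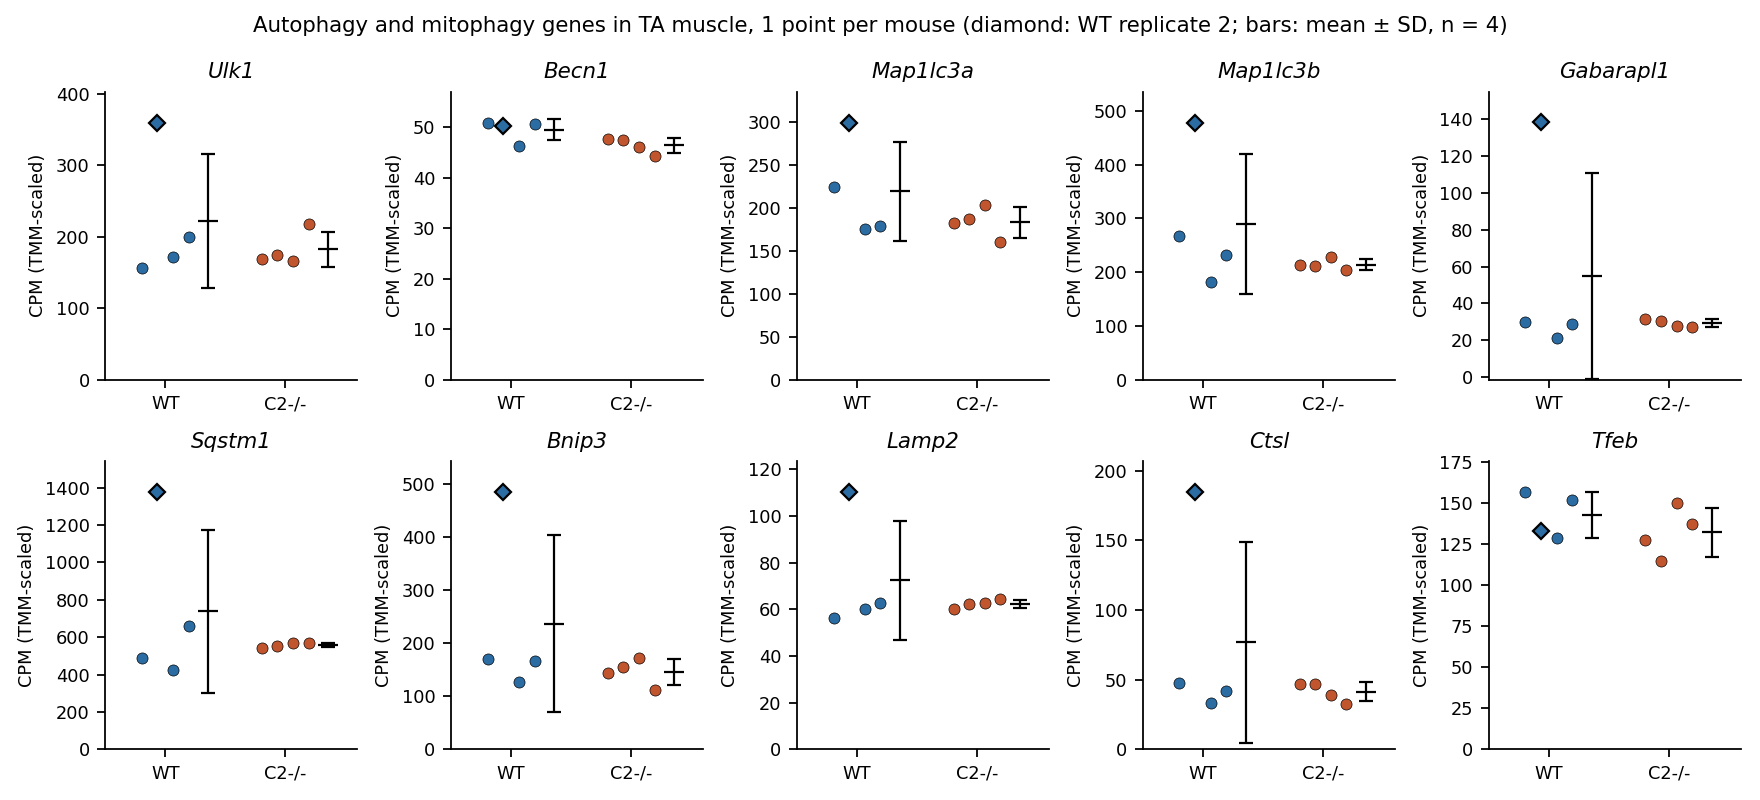
TMM-scaled CPM (y axis) of the 10 genes in each mouse, WT in blue and C2-/- in orange, with the mean ± SD of the 4 mice per genotype beside the points. The y axis starts at 0 in each panel but that of *Gabarapl1*, where it starts lower to hold the SD bar. The diamond, WT replicate 2, is the highest point in 8 panels, and *Becn1* and *Tfeb* are the panels in which it is not.

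Between the genotypes, no member passed the test. Each fitted log2 fold change (C2-/- minus WT) was below 0, with a median of -0.34 against -0.02 over all tested genes, of which 54.2% were below 0. Under edgeR's quasi-likelihood test 0 of 10 had an unadjusted p under 0.05, against 5.29% of all tested genes (663 genes), and adjusted p-values of the members lay between 0.968 and 0.972. DESeq2 put 725 genes under that threshold, 1 of them a member, *Bnip3* (unadjusted p 0.0493, adjusted p 0.861). Limma-voom put 659 genes there and 0 members. At an adjusted p under 0.05 with more than a 1.5-fold change, 4 of the 12542 genes (0.0319%) were called, and no member was among them. The 2 genotypes overlapped in CPM for all 10 members, while 3.38% of tested genes had no overlap. Without WT replicate 2 the median of the members was -0.02 against 0.00 for all genes, 5 members were above 0 and 5 below, where 50.5% of all tested genes were below. Again 0 members had an unadjusted p under 0.05, against 5.89% of all genes. Without WT replicate 3, *Map1lc3b*, *Gabarapl1*, *Bnip3* and *Ctsl* were under that threshold, 4 of 10 members against 7.75% of all genes, and none of the 10 had an adjusted p under 0.05.

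**Figure D2:**
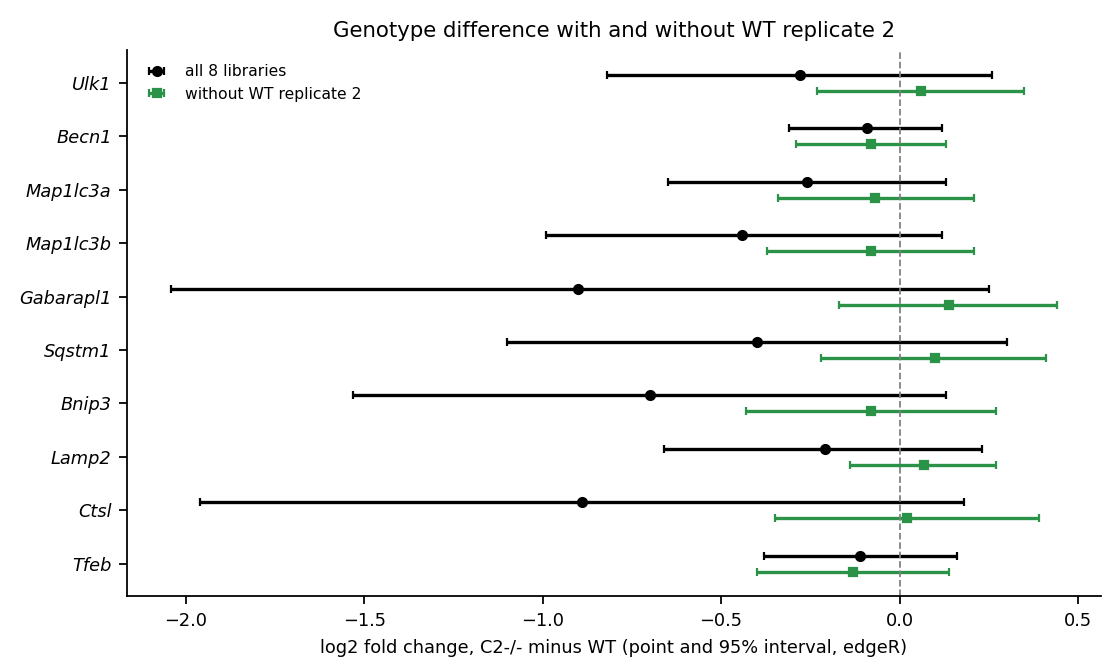
Log2 fold change, C2-/- minus WT (x axis), of the 10 genes with its 95% interval, from all 8 libraries (black) and without WT replicate 2 (green). All intervals include 0. The interval of *Gabarapl1* runs from -2.04 to 0.25 with all libraries and from -0.17 to 0.44 without WT replicate 2.

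*Ulk1* encodes the kinase that starts autophagosome formation and is a target of AMPK and mTORC1. It was at 156, 359.9, 172 and 199 CPM in WT replicates 1 to 4 and at 169.5, 175, 166 and 218 CPM in C2-/- replicates 1 to 4. WT replicate 2 was 1.65-fold above the highest other library, C2-/- replicate 4, and the other 3 WT libraries overlapped the C2-/- libraries. The log2 fold change was -0.28 (SE 0.24, 95% interval -0.82 to 0.26), and 0.06 (-0.23 to 0.35) without WT replicate 2.

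*Becn1*, which encodes Beclin 1 of the class III PI3-kinase complexes, varied least of the 10 over the 8 libraries. Its level was 51.0, 50.2, 46.4 and 50.7 CPM in WT replicates 1 to 4 and 47.7, 47.5, 46.1 and 44.4 CPM in C2-/- replicates 1 to 4. WT replicates 1, 2 and 4 lay above all C2-/- libraries, and WT replicate 3 fell among them. The genotype means were 49.6 ± 2.16 and 46.4 ± 1.53 CPM (SD, n = 4), and the log2 fold change was -0.09 (SE 0.10, 95% interval -0.31 to 0.12). It was -0.08 (-0.29 to 0.13) without WT replicate 2.

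The 3 ATG8 members differed in how far WT replicate 2 stood above the rest. *Map1lc3a* (LC3A) was at 224, 299.7, 175 and 179 CPM in WT replicates 1 to 4 and at 182, 187, 204 and 160.2 CPM in C2-/- replicates 1 to 4. Its highest library was 1.34-fold above the next, and the rest of the WT libraries overlapped the C2-/- libraries. *Map1lc3b* (LC3B), whose lipid-bound form is the usual marker of autophagosomes, was at 266, 478, 182 and 232 CPM in WT and at 212, 211, 228 and 205 CPM in C2-/- in the same order. *Gabarapl1*, a GABARAP-type protein, was at 30.03, 138, 21.4 and 29.1 CPM in WT and at 31.8, 30.4, 28.0 and 27.3 CPM in C2-/-. In WT replicate 2, *Map1lc3b* was 1.79-fold and *Gabarapl1* 4.35-fold above the highest other library, while in the other 7 libraries the highest value of *Gabarapl1* was 1.49-fold above the lowest. The log2 fold changes were -0.26 (SE 0.17) for *Map1lc3a*, -0.44 (SE 0.25) for *Map1lc3b* and -0.90 (SE 0.52) for *Gabarapl1*. Without WT replicate 2 they were -0.07, -0.08 and 0.14, with 95% intervals of -0.34 to 0.21, -0.37 to 0.21 and -0.17 to 0.44. The family members outside the 10, *Gabarap* (238 CPM in WT replicate 2, 150.4 to 199.6 CPM elsewhere) and *Gabarapl2* (72.5 CPM, against 47.1 to 56.6 CPM), were also highest in that library, by 1.19-fold and 1.28-fold.

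*Sqstm1* encodes p62, the receptor that ties ubiquitinated cargo to LC3. It was at 488, 1376, 426 and 662 CPM in WT replicates 1 to 4 and at 544, 554, 567 and 571 CPM in C2-/- replicates 1 to 4. The C2-/- libraries lay close together (559 ± 12.4 CPM, SD, n = 4) and inside the WT range, which had a mean of 738 ± 437 CPM. The log2 fold change was -0.40 (SE 0.32, 95% interval -1.10 to 0.30) with all libraries and 0.10 (-0.22 to 0.41) without WT replicate 2.

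*Bnip3*, a receptor on the outer mitochondrial membrane that binds LC3, was at 170.3, 485, 127 and 166 CPM in WT replicates 1 to 4 and at 144, 154, 172 and 113 CPM in C2-/- replicates 1 to 4. WT replicate 2 was 2.82-fold above the highest other library, and the remaining WT libraries lay within the C2-/- range. The log2 fold change was -0.70 (SE 0.37, 95% interval -1.53 to 0.13), and -0.08 (-0.43 to 0.27) without WT replicate 2. Its paralogue *Bnip3l* (NIX) was at 65.8, 105, 50.3 and 66.2 CPM in WT and 52.5, 62.6, 53.8 and 56.5 CPM in C2-/-, with a log2 fold change of -0.35 (SE 0.20). *Pink1*, which encodes a mitochondrial kinase of mitophagy, was not set apart in this way. It was at 779.7 CPM in WT replicate 2, within the 665 to 944 CPM of the other libraries.

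Of the lysosomal members, *Lamp2* encodes a glycoprotein of the lysosomal membrane and *Ctsl* the cysteine protease cathepsin L. *Lamp2* was at 56.3, 110.2, 60.3 and 62.7 CPM in WT replicates 1 to 4 and at 60.0, 62.4, 62.8 and 64.3 CPM in C2-/- replicates 1 to 4. *Ctsl* was at 47.8, 185, 33.5 and 41.6 CPM in WT and at 47.1, 46.9, 39.3 and 32.4 CPM in C2-/- in the same order. WT replicate 2 was 1.71-fold above the highest other library for *Lamp2* and 3.86-fold for *Ctsl*, and the other WT libraries overlapped C2-/- for both. The log2 fold change of *Lamp2* was -0.21 (SE 0.20, 95% interval -0.66 to 0.23), and 0.07 (-0.14 to 0.27) without WT replicate 2. That of *Ctsl* was -0.89 (SE 0.48, 95% interval -1.96 to 0.18), and 0.02 (-0.35 to 0.39) without it. Their better known relatives did not all share the pattern. *Lamp1* was at 659 CPM and *Ctsb* at 321 CPM in WT replicate 2, inside the 618 to 682 CPM and 289.7 to 341 CPM of the other libraries, whereas *Ctsd*, the aspartic protease cathepsin D, was at 1217 CPM against 609 to 765 CPM.

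*Tfeb* encodes a transcription factor that drives lysosomal and autophagy genes and is controlled largely by where in the cell the protein is held. It was at 156, 133, 128 and 152 CPM in WT replicates 1 to 4 and at 127, 115, 150.0 and 137 CPM in C2-/- replicates 1 to 4, with WT replicate 2 inside the range of the others. The log2 fold change was -0.11 (SE 0.12, 95% interval -0.38 to 0.16), and -0.13 (-0.40 to 0.14) without WT replicate 2. The related *Tfe3* was at 22.4 CPM in WT replicate 2 and at 15.6 to 19.0 CPM in the other libraries, a log2 fold change of -0.21 (SE 0.13).

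Levels were compared between genes on the authors' TPM, an abundance that also divides by transcript length. By the median TPM of the 8 libraries the order was *Sqstm1* (539), *Map1lc3a* (363), *Map1lc3b* (249), *Bnip3* (175), *Tfeb* (122), *Ulk1* (65.4), *Ctsl* (48.9), *Becn1* (44.4), *Lamp2* (42.6) and *Gabarapl1* (30.7). With all 8 libraries every pair of neighbours in this order overlapped in range. Without WT replicate 2 the order was the same, and the pairs that still overlapped were *Bnip3* and *Tfeb*, *Ulk1* and *Ctsl*, *Ctsl* and *Becn1*, and *Becn1* and *Lamp2*. In WT replicate 2, *Gabarapl1*, the lowest of the 10 by median, was at 132 TPM and *Ctsl* at 188 TPM, above *Ulk1* at 116 TPM and *Tfeb* at 103 TPM. On this scale 5 of the 10 members were more than 1.5-fold above every other library in WT replicate 2, since *Ulk1* and *Lamp2* no longer were. The same share over all genes was not computed on TPM.

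The counts of several members may hold reads of other genes. In the GENCODE annotation of the same genome, exons of *Becn1* overlap *Cntd1* on the opposite strand over 1297 bases. Those of *Ctsl* overlap 2 noncoding genes over up to 977 bases. *Gm49230*, a processed pseudogene on the same strand, is among these and matches *Ctsl* over 395 bases at 100%. Exons of *Sqstm1* overlap *Mrnip* over 580 bases and those of *Bnip3* an antisense gene over 342 bases. The overlaps of *Map1lc3b* and *Gabarapl1* span 58 and 47 bases. For *Gabarapl1* the shared sequence is longer than this overlap. The overlapping gene, a processed transcript on the opposite strand, matches it at 100% over more than the 342 bases given for *Bnip3*. *Map1lc3b* has 4 processed pseudogenes that match it by 95% or more along 200 or more bases, and *Bnip3* has similar copies outside its own locus. Whether reads were counted by strand is not given in the sources used here, and the part of these copies in the values was not tested. *Ulk1*, *Tfeb*, *Map1lc3a* and *Lamp2* have no such overlap or copy. *Bnip3* spans bases 138890836 to 138909506 of chromosome 7, *Sqstm1* bases 50200152 to 50212234 of chromosome 11, *Gabarapl1* bases 129533192 to 129542331 of chromosome 6 and *Ctsl* bases 64361052 to 64370748 of chromosome 13 in the deposited table (GRCm38.p6).

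The wider pathway was read from 13 lists with 147 genes, the 10 members included, of which 145 were tested. Of these, 2 had an unadjusted p under 0.05 and were higher in C2-/- (3.38% of all tested genes), and 1 was lower (1.91% of all). With edgeR none had an adjusted p under 0.05. DESeq2 called 1, *Deptor*. The median log2 fold change of the 145 genes was -0.06 against -0.02 for all genes, with 96 genes below 0, and it was 0.00 without WT replicate 2, with 73 below 0.

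*Deptor*, which encodes an inhibitor that binds mTOR, was higher in every C2-/- library. It was at 22.9, 16.3, 25.8 and 28.7 CPM in WT replicates 1 to 4 and at 51.5, 32.8, 43.1 and 73.0 CPM in C2-/- replicates 1 to 4, so the genotypes did not overlap. Of the 145 tested pathway genes 2, *Deptor* and *Ctsk*, had no overlap, against 3.38% of all tested genes, and both were named for their p. The log2 fold change of *Deptor* was 1.10 (SE 0.25, 95% interval 0.55 to 1.65) and its unadjusted p with edgeR 0.0012. The adjusted p was 0.571 with edgeR and 0.0137 with DESeq2. WT replicate 2 held the lowest value, and without it the log2 fold change was 0.96 (0.44 to 1.49). *Ctsk*, cathepsin K, which digests collagen, was at 1.70, 1.13, 1.64 and 1.45 CPM in WT and at 2.46, 2.64, 4.11 and 2.67 CPM in C2-/-, also with no overlap. Its log2 fold change was 1.01 (SE 0.25, 95% interval 0.46 to 1.55, edgeR adjusted p = 0.571), and 0.90 (0.35 to 1.46) without WT replicate 2. Beside *Ctsk*, all 7 fibroblast markers had a log2 fold change above 0, with a median of 0.67, and their sum lay between 302 and 452 CPM in WT and between 499 and 675 CPM in C2-/-. Most markers of tendon (6 of 7, median 1.11), adipocytes (4 of 5, 0.76) and macrophages (8 of 9, 0.24) were above 0 as well. The medians of endothelial, Schwann cell and blood markers were 0.00, -0.33 and -0.92. Without WT replicate 2 the medians were 0.42 for fibroblast, 0.77 for tendon, 0.73 for adipocyte and 0.48 for macrophage markers. Those of endothelial, Schwann cell and blood markers were then -0.10, -0.48 and -0.29. The part of these cell types in the level of *Ctsk* was not tested. *Sesn1*, a sestrin that restrains mTORC1, was at 15.2, 72.0, 11.8 and 13.9 CPM in WT and at 11.3, 12.4, 10.1 and 11.8 CPM in C2-/-. Its log2 fold change of -1.31 (SE 0.53, edgeR adjusted p = 0.914) was -0.25 (95% interval -0.54 to 0.04) without WT replicate 2.

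**Figure D3:**
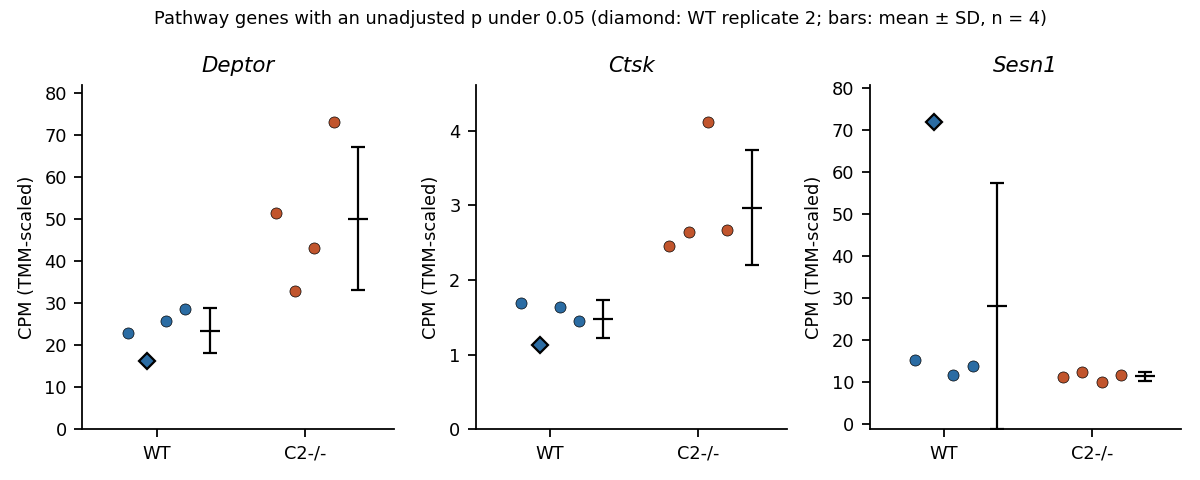
TMM-scaled CPM (y axis) of the 3 pathway genes with an unadjusted p under 0.05, 1 point per mouse, WT in blue and C2-/- in orange, with mean ± SD of 4 mice and WT replicate 2 as a diamond. *Deptor* and *Ctsk* do not overlap between genotypes, the only 2 of the 145 tested pathway genes, against 3.38% of all tested genes. *Sesn1* is set apart by WT replicate 2 at 72.0 CPM.

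Leaving out the 10 members, 63 of the other 135 tested pathway genes (46.7%) were highest in WT replicate 2, against 27.5% of all tested genes, and 12 (8.89%) were more than 1.5-fold above every other library, against 4.60%. Among the members the shares were 80.0% and 70.0%. Members and lists were both drawn up with results of these data known, so these shares are descriptions. By list, all 5 ATG8 family genes, 13 of 16 subunits of the lysosomal proton pump, 6 of 9 membrane expansion genes and 5 of 7 cargo receptors were highest in WT replicate 2. Of the 11 genes of the ATG8 conjugation machinery, 3 were highest and 3 lowest there, and of the 31 mTORC1 and AMPK genes 10 were highest and 11 lowest (35.5%), where 24.5% of all tested genes were lowest. The summed ATG8 family level was 1227 CPM in WT replicate 2 against 579 to 772 CPM elsewhere, and that of the conjugation machinery 181 CPM against 183 to 195 CPM. The genes named next were chosen after their values were seen. *Npc1*, a cholesterol transporter of the lysosome, was at 178 CPM in WT replicate 2 and at 27.9 to 37.1 CPM in the others, and *Foxo1*, a transcription factor of atrophy and autophagy genes, at 87.4 CPM against 20.9 to 39.3 CPM. *Atg13*, a partner of ULK1, was at 127 CPM against 65.9 to 72.2 CPM.

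**Figure D4:**
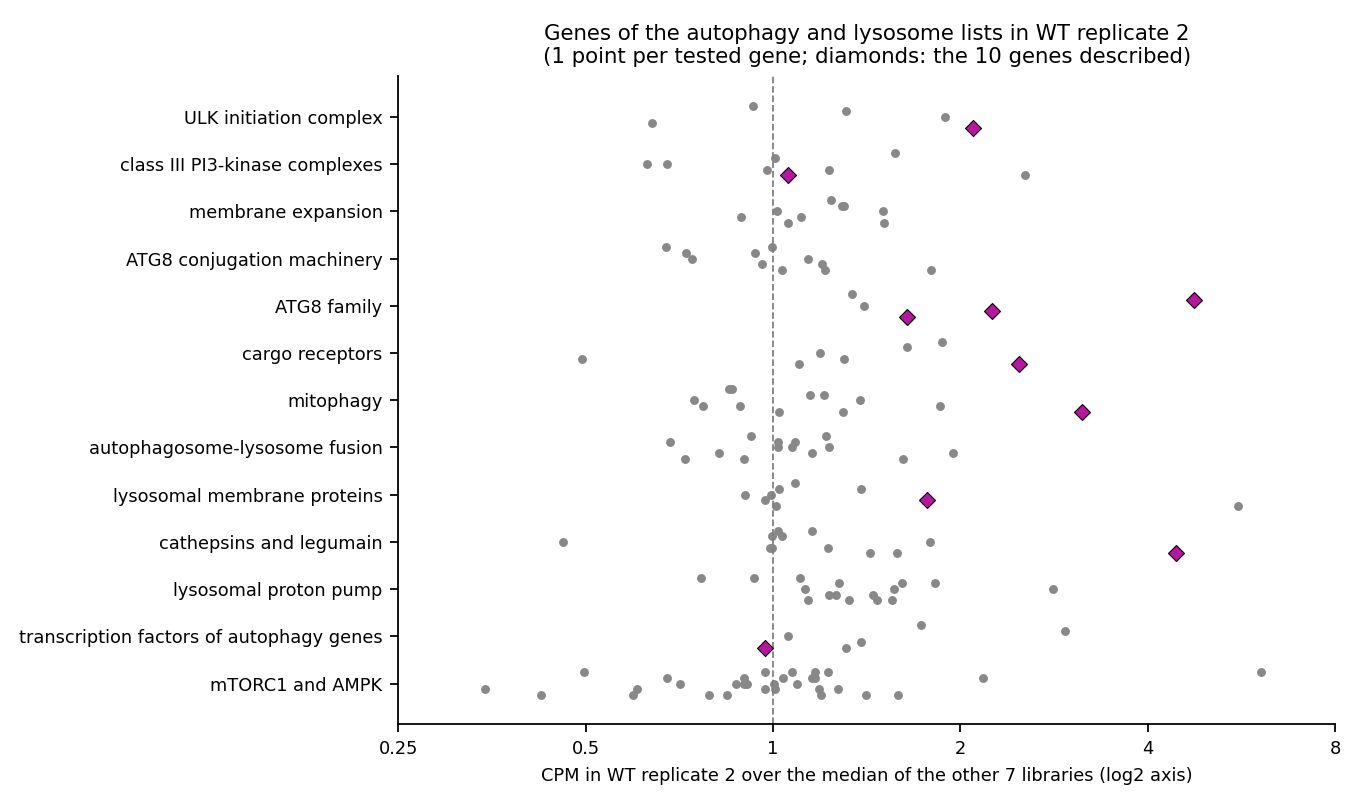
CPM in WT replicate 2 divided by the median of the other 7 libraries (x axis, log2 scale), 1 point per tested gene of the 13 lists (rows), with the 10 members as diamonds. *Gabarapl1* lies at 4.74 and *Ctsl* at 4.44, while *Becn1* lies at 1.06 and *Tfeb* at 0.970.

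Other gene groups moved with WT replicate 2 as well, and their part in the levels of the members was not tested. Of 16 genes that respond to FoxO factors or glucocorticoid in muscle, 15 were highest there and 11 were more than 1.5-fold above every other library. *Foxo1*, *Foxo3* and *Ddit4* are in this group and also in the pathway lists above. The sum of the 16 genes was 4849 CPM in WT replicate 2 and 958 to 2051 CPM elsewhere. Among them, *Trim63* (MuRF1) and *Fbxo32* (atrogin-1), ubiquitin ligases of muscle atrophy, were at 682 and 971 CPM, against 82.1 to 179 CPM and 200.2 to 529.8 CPM. Immediate early genes summed to 783 CPM in WT replicate 2, 1584 CPM in WT replicate 4, 1027 CPM in C2-/- replicate 2 and 149 to 193 CPM in the other 5 libraries. Markers of macrophages, which are rich in lysosomes, summed to 96.2 CPM in WT replicate 2, within the 42.3 to 108 CPM of the other libraries, and 0 of the 9 tested were more than 1.5-fold above all others there. Blood cell markers summed to 6321 CPM in WT replicate 2, 4343 CPM in WT replicate 1, 5884 CPM in C2-/- replicate 4 and 484 to 3779 CPM in the other libraries. This sum is mostly *Hba-a1*, a haemoglobin gene. All 5 tested blood markers were highest in WT replicate 2, and the neutrophil markers *S100a8* and *S100a9* were at 12.8 and 16.7 CPM there, against at most 1.19 and 2.17 CPM in any other library. Markers of connective tissue were low in the same library. Of 7 fibroblast markers, 5 were lowest in WT replicate 2 and 4 were more than 1.5-fold below every other library, with *Col3a1* at 10.7 CPM against 32.0 to 150.3 CPM. Of 7 tested tendon markers, 4 were lowest there and 2 were more than 1.5-fold below.

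Over the 8 libraries the log2 CPM of the members moved together, and did so less without WT replicate 2. The median Pearson correlation of the 45 pairs was 0.82 (range -0.15 to 0.99), and 19 pairs were above 0.90. The median Spearman correlation was 0.36. Without WT replicate 2 the median Pearson correlation was 0.35 (range -0.83 to 0.82), and 0 pairs were above 0.90. *Gabarapl1* and *Ctsl* had a Pearson correlation of 0.99 with all libraries and 0.79 without WT replicate 2, and *Map1lc3a* and *Bnip3* 0.95 and 0.82. *Map1lc3a* and *Ulk1* had 0.62 and -0.83, and *Map1lc3a* and *Lamp2* 0.77 and -0.70. These points share the normalization of their libraries, and the correlations are descriptions.

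**Figure D5:**
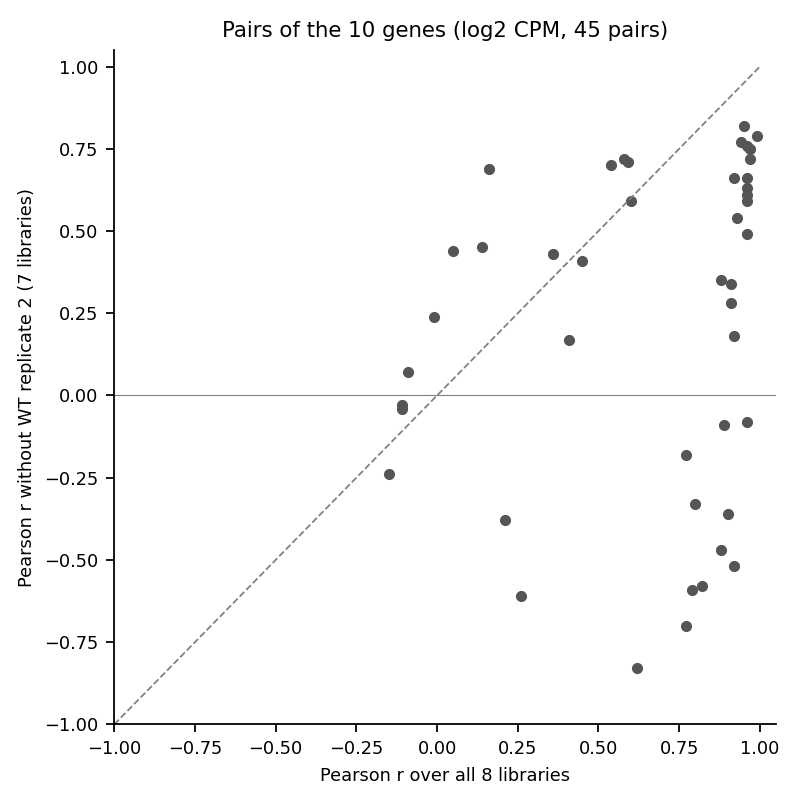
Pearson correlation of log2 CPM for the 45 pairs of the 10 genes, over all 8 libraries (x axis) and over the 7 libraries without WT replicate 2 (y axis), with the dashed line marking equal values. Most pairs lie below the line, with medians of 0.82 and 0.35.

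Among the 6795 tested genes outside the lists with a mean of at least 10 CPM, those whose log2 CPM over the 8 libraries was most like that of *Bnip3* were *Phf23* (Pearson correlation 0.995), *Ppp2ca* (0.992), a catalytic subunit of protein phosphatase 2A, and *Psmc2* (0.989), an ATPase of the proteasome. For *Gabarapl1* they were *Eif4ebp1* (0.996), which encodes the translation repressor 4E-BP1, *Srxn1* (0.988), which encodes sulfiredoxin, and *Drg1* (0.986). For *Map1lc3b* they were *Arf1* (0.996), *Rabggtb* (0.994) and *Atxn2l* (0.989). For *Ctsl* they were *Psma1* (0.992), a subunit of the proteasome, the gene with the ID 217615 (0.988) and *Zfp207* (0.987). For *Ulk1* they were *Zfp865* (0.992), *Fam3a* (0.987) and *Ube4b* (0.980). *Eif4ebp1* was at 517 CPM in WT replicate 2 and at 61.0 to 105 CPM in the other libraries. Without WT replicate 2 these 15 correlations lay between 0.69 and 0.99, and since the genes were picked as the 3 highest of 6795 for each member, the values carry no test.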

How the data were processed

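TA muscle of 8 mice, 4 per genotype by label, was measured as 1 poly(A) RNA library each. A second age in the labels differs from the 22 months used here, in both groups alike. The authors aligned reads to GRCm38 with HISAT and counted them per gene, and deposited expected counts without normalization together with TPM values per mouse. Between 5.50% and 6.53% of the counts of a library were not whole, so they were rounded. The deposited table also holds 8 FPKM columns (1 per mouse), 6 columns of group means and 3 columns of the authors' own comparison, and these were not used. Of 16687 rows, 16686 had a gene ID.

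Counts were compared with edgeR's quasi-likelihood test (edgeR 4.0.16, R 4.3.3), TMM factors (0.929 to 1.03) and the default filter on low counts, with Benjamini-Hochberg adjustment over 12542 genes. CPM are counts scaled to the TMM-adjusted library size. Log2 CPM used a prior count of 2. SE is the absolute log2 fold change over the root of F, and intervals are 95%. Calls are an adjusted p under 0.05 with more than 1.5-fold, or an unadjusted p under 0.05. The members and lists were chosen with earlier results of these data known. Named genes are the 10 members, *Mybpc2*, up to 3 genes per pathway list with an unadjusted p under 0.05, 9 fixed relatives of the members (1 of them is not reported here), and the 3 genes most like a member. Alternatives were RLE factors, library size alone, limma-voom (limma 3.58.1) without and with quality weights, DESeq2 1.42.0, no filter, at least 10 counts in every library, a log2 cutoff of 0.5, a replicate block and leaving out each library. Those without WT replicate 2 for correlations and order, and TPM for counts of members, were added after seeing the data. The test was tried on simulated counts. Overlaps used GENCODE vM21 and blastn 2.17.0, and promoters came from RefSeq. Total counts set a floor of 3 counts per library, which covers counting error only.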

Additional observations from a re-analysis of the deposited data

Results flagged for a closer look

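In 9 of 44 groups of 4 libraries among 22 named genes, the highest or lowest library lay far from the other 3 of its genotype (the gap to the nearest, as a share of the range, was over Dixon's 95% value). Chance would flag about 1 in 20 if the groups were independent and their values normally spread. These genes share the same libraries and some were named for their p, so the count is a description. In 5 of the 9 the library was WT replicate 2, at 138 CPM for *Gabarapl1*, 485 CPM for *Bnip3*, 185 CPM for *Ctsl*, 110.2 CPM for *Lamp2* and 72.0 CPM for *Sesn1*. *Ulk1* was high in C2-/- replicate 4 (218 CPM), and *Becn1* was low in WT replicate 3 (46.4 CPM). C2-/- replicate 3 was high for *Ctsk* (4.11 CPM) and for *Mybpc2* (38.3 CPM), the targeted gene. The cause was not tested.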

How the results depend on the processing

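Of the 80 member log2 fold changes under the settings that kept all libraries, 80 kept their direction, and the 79 with an adjusted p stayed above 0.05. With limma-voom the change shrank to -0.45 for *Gabarapl1*, -0.53 for *Ctsl* and -0.24 for *Sqstm1*, and with quality weights, which were lowest for WT replicate 2 (0.266), to -0.02, -0.10 and -0.04, with -0.20 for *Bnip3*, -0.13 for *Map1lc3b*, -0.08 for *Map1lc3a*, -0.06 for *Ulk1* and -0.01 for *Lamp2*. With the replicate block it was -0.42 for *Gabarapl1*, -0.51 for *Ctsl* and -0.23 for *Sqstm1*. Of the 80 that left out a library, 75 kept their direction and stayed above 0.05. The 5 that turned were all without WT replicate 2, and over the 8 libraries left out the log2 fold change lay between -1.15 and 0.14 for *Gabarapl1*, -0.58 and 0.10 for *Sqstm1*, -0.42 and 0.06 for *Ulk1*, -1.13 and 0.02 for *Ctsl* and -0.32 and 0.07 for *Lamp2*. Leaving out 1 library at a time, members with an unadjusted p under 0.05 numbered 0 to 4. The 4 were *Map1lc3b*, *Gabarapl1*, *Bnip3* and *Ctsl*, without WT replicate 3, where 13 pathway genes and 983 of all genes were called, against 663 with all libraries. Without a library, pathway genes with an unadjusted p under 0.05 numbered 2 to 13, genes past the adjusted threshold 4 to 7, and members with no overlap 0 to 2 (*Map1lc3b* and *Becn1* without WT replicate 3). The share of all tested genes with no overlap was not computed without a library, and fewer libraries overlap less easily. DESeq2 called 38 genes against 4, and 1 pathway gene after adjustment. Without adjustment it called 725 genes, 1 of them a member, and it gave no p to *Gabarapl1* and *Sesn1*. *Deptor*, at 1.10 on the log2 scale with DESeq2, was past the adjusted threshold there. CPM over transcript length put 3 of the 10 members at the same rank as TPM. The median correlation of pairs was 0.35 without WT replicate 2, and 0.39 without both WT replicate 2 and C2-/- replicate 4, the libraries farthest from the median of *Bnip3*. With the replicate number as a block, 4 genes were called and 0 members had an unadjusted p under 0.05. These numbers name different mice, and same-numbered libraries had correlations of 0.267, 0.042, -0.051 and 0.021. For WT replicate 1 the same-numbered C2-/- library was the most alike, and for WT replicates 2, 3 and 4 it was not. Whether same-numbered libraries share more than a number was not tested. Under the block the adjusted p of *Deptor* was 0.0968. The cause of these shifts was not tested.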
